A study of Rattus norvegicus with 18 samples.

Results

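The jejunal mucosa of rats given abemaciclib at 36 mg/kg/day was compared with that of rats given ribociclib at 300 mg/kg/day. These are 6 of the 18 arrays of the series, 3 for each compound, taken by their treatment labels, and every gene with a probe set annotated to 1 symbol was tested, 14217 genes in all. The tissue was mucosal scrapings of the jejunum from male Sprague Dawley rats of 6 to 8 weeks, dosed once a day by oral gavage, and total RNA was hybridised to Affymetrix rat arrays. Both compounds were given in hydroxypropyl methylcellulose (0.5%) and Tween 80 (0.25%), buffered at pH 3 with 10 mM citrate, so this contrast holds the dosing vehicle constant. The 3 vehicle arrays of the series are labelled 0.5% methyl cellulose, the vehicle of palbociclib, and compound and vehicle cannot be told apart where either group is set against them. The remaining arrays were from palbociclib at 30 and 100 mg/kg/day and abemaciclib at 120 mg/kg/day. Dosing lasted 4 or 15 days, and the labels do not give the duration, or the animal, of a single array. A p-value here therefore reflects only how arrays scatter within groups, a spread pooled over all 6 groups of the series. The compound and its dose change together here, and their parts in a difference cannot be told apart.

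Abemaciclib and ribociclib are inhibitors of the cyclin-dependent kinases CDK4 and CDK6. These kinases, bound to D-type cyclins, phosphorylate the retinoblastoma protein, which then releases E2F transcription factors, and cells pass from G1 into S phase. Abemaciclib carries a benzimidazole joined to a pyrimidine core and an ethylpiperazine, whereas ribociclib is built on a pyrrolopyrimidine with a cyclopentyl group and a plain piperazine. The jejunal epithelium renews itself from crypts, where Wnt signalling sustains dividing cells, and its villi are covered by absorptive enterocytes and mucus-secreting goblet cells.

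All values are log2 expression values, in which 1 unit is a 2-fold difference, and the array medians lay between 5.41 and 5.51. Values near or under these medians are not shown to be above background, and no fold is given against a group that lies there. Enterocyte markers were strong on all 9 arrays used here, with a summed log2 signal of 16.4 to 16.6, and all 6 of them exceeded the array medians with vehicle. Muscle and connective tissue did not stay constant. The 5 smooth muscle markers summed to 8.34 to 8.57 on the vehicle arrays, 8.56 to 9.44 with abemaciclib and 8.80 to 10.2 with ribociclib. Of these markers, Actg2 and Cnn1 were below the array medians on every vehicle array, and Des was below on vehicle A only (5.39). Replicate A of ribociclib and replicate B of abemaciclib were the highest of their groups in the summed signal of these markers. Acta2 taken alone was highest on ribociclib B (8.19) and abemaciclib C (7.77). The median within-group SD over all genes was 0.260 with ribociclib, 0.210 with abemaciclib and 0.148 with vehicle. The 3' minus 5' difference of the beta-actin control probes, a sign of RNA quality, was 0.53, 0.62 and 0.80 with abemaciclib and 0.41, 0.40 and 0.90 with ribociclib, which overlapped (exact permutation p = 0.6, two-sided, against a smallest possible p of 0.1).

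Between the compounds, 54 genes differed at an adjusted p under 0.05 (limma over all 18 arrays, Benjamini-Hochberg adjustment over all genes), which is 0.380% of those tested. Of these, 22 were higher with abemaciclib (0.155%) and 32 were lower (0.225%). The lower group held the larger differences, led by Adm, Frat2 and Rsad2, and the higher group was led by Haus6, Il1b and Axin2. Arrays of the 2 groups did not overlap for any of the 54, against 1804 genes or 12.7% overall. At an unadjusted p under 0.05 (limma), 10.6% of all genes were higher with abemaciclib and 7.34% were lower, and 49.3% of all genes had a positive difference. Counts within gene lists in later paragraphs are to be read beside these shares. The median size of the called differences was 1.37 on the log2 scale and the smallest was 0.41, while the median over all genes was -0.01. Centring each array on its median moved that overall median to -0.11 and gave 16 genes higher and 39 lower.

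These counts rested on few arrays and on the spread pooled over all 6 groups. With only the 6 arrays of the 2 groups in the limma fit, 0 genes passed, 1131 had an unadjusted p under 0.05, and the smallest adjusted p was 0.120. Leaving out replicate A, B or C of abemaciclib gave 11, 962 and 9 calls, and leaving out replicate A, B or C of ribociclib gave 1524, 21 and 19. All 54 genes were called without abemaciclib B or without ribociclib A, and 7 of them were called in each of the 6 fits: Adm, Dnajb1, Frat2, Haus6, Il1b, Tcim and Tmem171. With the smooth muscle markers as a term in the fit, an alternative added after the data were seen, 126 genes passed, 53 of the 54 among them.

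**Figure D1:**
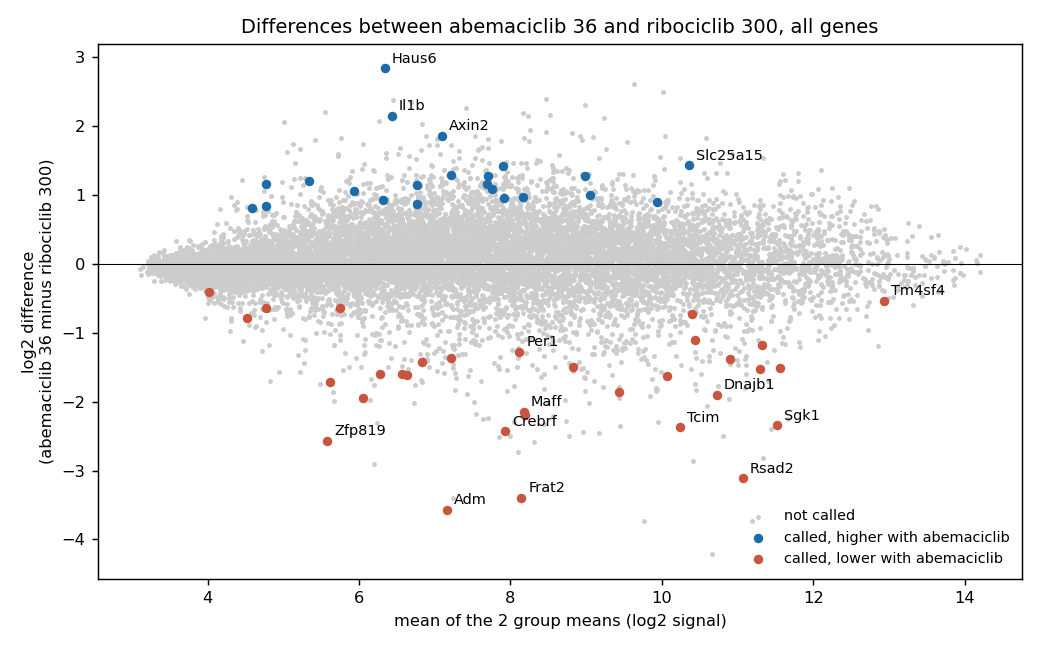
Log2 difference between abemaciclib 36 and ribociclib 300 mg/kg/day (y axis) against the mean log2 signal of both groups (x axis), 1 point per gene. The 22 genes called higher with abemaciclib are blue and the 32 called lower are red, and the lower genes reach farther from 0 than the higher ones.

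**Figure D2:**
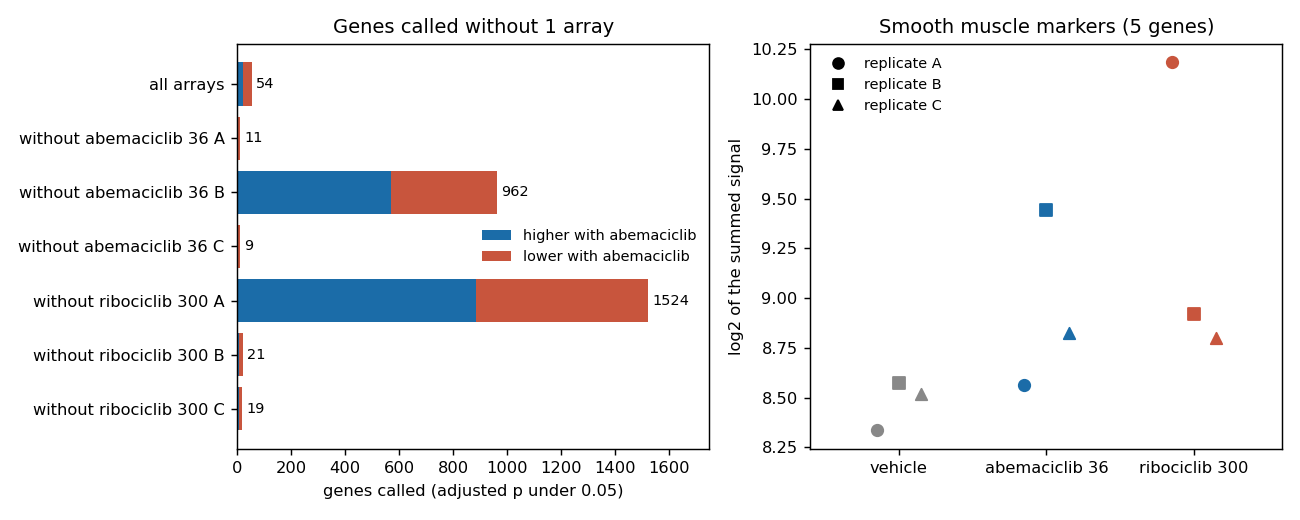
Left, number of genes called, split by direction, with all arrays and with 1 of the 6 arrays left out. Right, log2 of the summed signal of 5 smooth muscle markers on each array. The count rises from 54 to 962 or 1524 without abemaciclib B or ribociclib A, the arrays with the highest muscle signal in their groups. The part of muscle content in this rise was not tested.

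Genes that act on Wnt signalling went in opposite directions. Frat2, which binds the kinase GSK3 and keeps it from beta-catenin, read 6.21, 6.62 and 6.50 with abemaciclib, 8.87, 10.38 and 10.27 with ribociclib, and 9.70, 9.73 and 9.74 with vehicle. All 3 abemaciclib arrays were far under every other array, and ribociclib A was the lowest of its group. The difference was -3.40 (SE 0.33, n = 3 arrays in each group, adjusted p = 0.000226, limma), a level 10.5-fold lower with abemaciclib. Axin2, a scaffold of the complex that degrades beta-catenin and a feedback target of Wnt signalling, read 7.77, 8.25 and 8.04 with abemaciclib, 5.50, 6.72 and 6.25 with ribociclib, and 6.60, 6.24 and 6.34 with vehicle. Here the abemaciclib arrays were the high ones and ribociclib overlapped vehicle. Axin2 was higher with abemaciclib than with ribociclib (log2 difference 1.86, SE 0.35, adjusted p = 0.0288, limma), with ribociclib A at about its array median of 5.51. The Axin2 call was lost without abemaciclib A or C and without ribociclib C (adjusted p of 0.105, 0.118 and 0.0701, limma). Set against vehicle, the abemaciclib differences were -3.28 for Frat2 (adjusted p = 0.000208) and 1.63 for Axin2 (0.0240), and the ribociclib differences were 0.12 (0.866) and -0.23 (0.730). These comparisons share arrays with the one between the compounds.

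Of 19 measured genes on the list of Wnt targets and feedback regulators, Axin2 was the 1 called higher and Frat2 the 1 called lower, and the list's median difference was -0.06. Cd44, a cell surface glycoprotein of crypt cells, differed by 0.77 (adjusted p = 0.0811), and Myc by 0.79 (0.407) with values from 4.91 to 7.08 with abemaciclib and from 4.45 to 5.69 with ribociclib. Of 14 stem cell genes measured, only Axin2 passed, and Lgr5, the receptor that marks crypt base stem cells, read 3.96 to 4.30 and 3.95 to 4.03, under the array medians in both groups.

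Sequences upstream of the start site are given for the 4 genes that belong to a described gene list and were called in every fit without 1 array: Frat2, Haus6, Il1b and Dnajb1. Each is the 250 bases before the RefSeq gene start on the rat assembly GRCr8, read 5' to 3' on the gene's own strand, which is the minus strand for all 4. The positions are chr1:250605780-250606029 for Frat2, chr5:106199073-106199322 for Haus6, chr3:137036582-137036831 for Il1b and chr19:41431142-41431391 for Dnajb1. Capitals mark letters that match, on either strand, an E-box (CACGTG), an interferon-stimulated response element (GAAANNGAAA), a CHR element of cell cycle genes (TTTGAA), a cAMP response element (TGACGTCA), a TCF site of Wnt targets (CTTTGAT) or a heat shock element (GAANNTTC or TTCNNGAA). The CCAAT box, searched by those 5 letters, is marked too, and none of these motifs overlaps another in the 4 windows except as stated.
Frat2 promoter: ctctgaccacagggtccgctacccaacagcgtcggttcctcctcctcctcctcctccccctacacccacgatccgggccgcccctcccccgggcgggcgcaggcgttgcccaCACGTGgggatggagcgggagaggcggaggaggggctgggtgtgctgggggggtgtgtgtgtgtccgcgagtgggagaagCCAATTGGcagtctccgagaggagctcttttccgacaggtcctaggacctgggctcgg
Haus6 promoter: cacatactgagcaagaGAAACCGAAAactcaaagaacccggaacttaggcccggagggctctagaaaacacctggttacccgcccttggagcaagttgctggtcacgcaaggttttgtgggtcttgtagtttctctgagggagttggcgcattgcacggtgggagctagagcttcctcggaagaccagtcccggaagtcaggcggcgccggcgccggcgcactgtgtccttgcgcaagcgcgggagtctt
Il1b promoter: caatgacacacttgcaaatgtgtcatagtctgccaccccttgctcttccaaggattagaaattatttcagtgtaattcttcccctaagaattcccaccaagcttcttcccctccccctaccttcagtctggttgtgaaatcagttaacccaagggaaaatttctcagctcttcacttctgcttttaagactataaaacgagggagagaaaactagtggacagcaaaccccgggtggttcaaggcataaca
Dnajb1 promoter: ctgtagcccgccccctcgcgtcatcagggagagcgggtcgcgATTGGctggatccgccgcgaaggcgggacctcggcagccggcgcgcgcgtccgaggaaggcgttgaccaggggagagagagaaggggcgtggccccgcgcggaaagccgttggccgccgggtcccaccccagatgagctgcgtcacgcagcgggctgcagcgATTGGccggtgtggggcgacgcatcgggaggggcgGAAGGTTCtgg
The Frat2 window held an E-box from -138 to -133, which 5.79% of 27457 promoter windows of this length hold, and a pair of overlapping CCAAT boxes on opposite strands from -58 to -51. The Haus6 window held an interferon-stimulated response element from -234 to -225, a match found in 3.29% of windows. In the Dnajb1 window, a heat shock element lay from -11 to -4, as in 13.2% of windows, and CCAAT boxes on the strand opposite to the one printed lay from -208 to -204 and from -46 to -42, CCAAT being present in 34.3% of windows. Letters of the cAMP response element, CHR element and TCF site, present in 1.70%, 16.03% and 3.18% of windows, matched in none of the 4, and the Il1b window had no match to any of the 7 motifs. A match is a description of letters, and no binding was measured.

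Haus6 had the largest difference among the genes called higher with abemaciclib. It encodes a subunit of augmin, the complex that branches microtubules in the mitotic spindle. Its signal was 8.47, 6.97 and 7.84 with abemaciclib, 5.40, 4.83 and 4.54 with ribociclib, and 5.03, 5.25 and 5.10 with vehicle. Every abemaciclib array was above every other array, with replicate B the nearest to them. The difference was 2.84 (SE 0.38, adjusted p = 0.00457), measured against ribociclib signals under their array medians, and against vehicle it was 2.63 for abemaciclib (adjusted p = 0.00290) and -0.20 for ribociclib (0.790). A dimmer Haus6 probe set, with a mean of 3.72, differed by 0.10. Among 47 genes measured for G2/M and mitosis it was the 1 call, and their median difference was 0.14.

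The kinases these drugs target did not separate the groups at the threshold. Cdk4 read 7.31, 7.76 and 8.74 with abemaciclib and 8.48, 6.24 and 6.59 with ribociclib, which overlapped (difference 0.83, 95% interval -0.14 to 1.80, adjusted p = 0.353). Cdk6 was under the array medians throughout and differed by 0.03 (-0.20 to 0.27). Mki67, a protein of dividing cells, ranged from 6.97 to 8.57 and from 5.43 to 8.38 (difference 0.71, -0.64 to 2.06), and the intervals for Ccnd1 (-0.50 to 1.73), Ccnd2 (-0.71 to 0.62), Ccne1 (-0.69 to 0.52) and Rb1 (-0.10 to 0.68) also held 0. Of 21 measured genes for CDK4, CDK6, their partners and inhibitors, 0 were called, with 2 higher and 1 lower at an unadjusted p under 0.05. Of 43 genes of G1/S and DNA replication, 0 were called and 3 were higher at an unadjusted p under 0.05, a level passed by 10.6% of all genes in that direction and by 7.34% in the other. The largest of these was E2f2, an E2F transcription factor, at 9.30, 8.69 and 9.30 with abemaciclib and 8.14, 7.70 and 6.95 with ribociclib (2.83-fold, adjusted p = 0.0613). Its arrays did not overlap, and vehicle, at 9.06 to 9.25, lay with abemaciclib. The inhibitors Cdkn1a, Cdkn1b and Cdkn2d differed by -0.23, -0.62 and -0.44 (adjusted p of 0.629, 0.270 and 0.389).

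Adm, the precursor of the vasodilator peptide adrenomedullin, read 7.84, 10.52 and 8.47 with ribociclib, 5.58, 5.37 and 5.17 with abemaciclib, and 5.20, 5.39 and 5.51 with vehicle. Ribociclib stood alone, with replicate B the highest, while abemaciclib overlapped vehicle at about the array median. The difference between the compounds was -3.57 (SE 0.45, adjusted p = 0.00373), and against vehicle it was 3.58 for ribociclib (adjusted p = 0.000722) and 0.01 for abemaciclib (0.997). Ackr3, an atypical chemokine receptor, was lower with abemaciclib, at 6.01, 8.10 and 7.20 against 8.69, 10.29 and 8.90 (difference -2.19, adjusted p = 0.0469). Its call was lost in 4 of the 6 fits without 1 array, with adjusted p up to 0.202.

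Il1b, the inflammatory cytokine interleukin 1 beta, moved the other way: 7.60, 7.40 and 7.52 with abemaciclib, 5.56, 5.20 and 5.32 with ribociclib, and 7.66, 7.77 and 8.14 with vehicle. The ribociclib arrays were the low ones, near or under the array medians, and the 2 groups were each tight. Il1b was higher with abemaciclib (log2 difference of the signals as read 2.15, SE 0.30, adjusted p = 0.00548), and the ribociclib difference from vehicle was -2.50 (adjusted p = 0.000555) against -0.35 for abemaciclib (0.697). It was the 1 call among 24 genes of the interleukin 1 family and inflammatory cytokines, whose median difference was -0.10. Ccl20, the chemokine that attracts CCR6-bearing lymphocytes, read 10.19, 9.91 and 9.59 with abemaciclib and 12.75, 10.72 and 12.12 with ribociclib, with no overlap (difference -1.96, adjusted p = 0.133). The decoy receptor Il1r2 read 3.50 to 3.65 and 3.91 to 5.01, both under the array medians (difference -0.78, adjusted p = 0.0651).

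**Figure D3:**
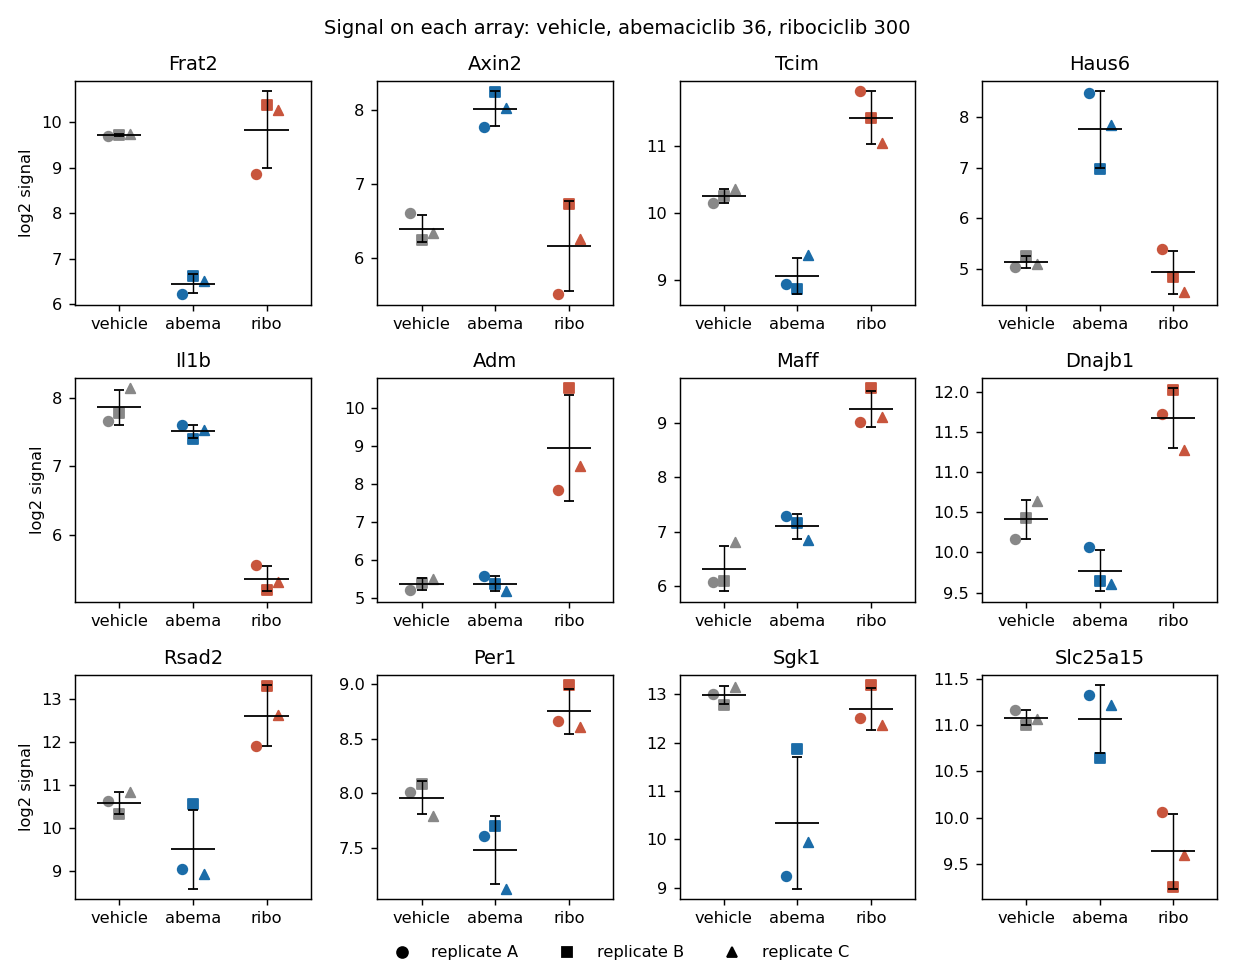
Log2 signal (y axis) of 12 genes on each array of vehicle, abemaciclib 36 and ribociclib 300 mg/kg/day. Lines and bars are the mean and SD of 3 arrays, and symbols mark the replicate letter. Frat2, Axin2 and Haus6 set abemaciclib apart from the other groups, whereas Il1b, Adm, Maff and Slc25a15 set ribociclib apart.

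Tcim, a small regulator of transcription and immune responses, was on opposite sides of vehicle in the 2 groups. It read 8.94, 8.86 and 9.37 with abemaciclib, 11.82, 11.42 and 11.04 with ribociclib, and 10.14, 10.25 and 10.36 with vehicle. No array of any of the 3 groups overlapped another group. The difference was -2.37 (SE 0.34, adjusted p = 0.00644), although neither difference from vehicle passed (-1.20 with adjusted p = 0.0863 for abemaciclib, 1.17 with 0.0677 for ribociclib). Tmem171, a membrane protein named after its values were seen, read 5.93, 6.29 and 6.15 with abemaciclib and 7.49, 7.76 and 7.40 with ribociclib, with vehicle at 6.26 to 6.71 (difference -1.43, adjusted p = 0.00457).

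Immediate early genes, the first to be transcribed after a stimulus, were mostly on the lower side with abemaciclib. Of 30 measured, 23 had a negative difference, and Maff alone was called. At an unadjusted p under 0.05 (limma), 11 were lower and 2 higher, beside 7.34% and 10.6% of all genes. The list's median difference was -0.39. Maff, a small Maf transcription factor, read 7.29, 7.17 and 6.84 with abemaciclib, 9.02, 9.63 and 9.10 with ribociclib, and 6.08, 6.09 and 6.81 with vehicle. Ribociclib was well above both other groups (difference -2.15, SE 0.34, adjusted p = 0.0123), and its difference from vehicle was 2.92 (adjusted p = 0.000547) against 0.78 for abemaciclib (0.306). The Maff call was lost without abemaciclib C and without ribociclib B (adjusted p of 0.0784 and 0.0561). Fosl2, an AP-1 subunit, read 7.08 to 7.71 and 8.35 to 9.15 without overlap (difference -1.24, adjusted p = 0.0522), and Egr2, a zinc finger factor, differed by -1.44 (0.0685). Egr1, in contrast, read 11.92, 11.26 and 11.66 with abemaciclib and 12.08, 9.06 and 12.03 with ribociclib, against 8.52 to 8.81 with vehicle. Both groups were above vehicle, by 2.98 (adjusted p = 0.0203) and 2.42 (0.0403), and overlapped each other (0.56, 95% interval -0.74 to 1.86).

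Chaperone genes were split. Dnajb1, the HSP40 co-chaperone that delivers clients to HSP70, read 10.07, 9.64 and 9.61 with abemaciclib, 11.72, 12.01 and 11.28 with ribociclib, and 10.16, 10.42 and 10.64 with vehicle. The ribociclib arrays were the highest of the 3 groups. Dnajb1 was 3.72-fold lower with abemaciclib than with ribociclib (log2 difference -1.90, SE 0.27, adjusted p = 0.00644), and a second probe set gave the same -1.90. The heat shock and chaperone list as a whole, Dnajb1 included, leaned the opposite way: 16 of 21 genes had a positive difference, 13 were higher and 2 lower at an unadjusted p under 0.05, and the median was 0.71. Hspa9, the mitochondrial HSP70, read 11.18, 9.86 and 11.10 against 10.48, 8.68 and 8.85, with overlap (difference 1.37, adjusted p = 0.129), and Hspa4 read 8.71, 8.34 and 8.71 against 7.95, 7.84 and 7.77, without it (0.73, 0.0979). Without ribociclib A, 12 of the list were called higher and 2 lower. Among 22 genes of the unfolded protein response, 0 were called, and 6 were higher and 1 lower at an unadjusted p under 0.05 (limma). Of the 22, 18 had a positive difference, and the median was 0.45. Herpud1, a membrane protein of endoplasmic reticulum degradation, had the lowest difference of that list, at -1.37 (adjusted p = 0.0504, limma).

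Interferon-stimulated genes were on the lower side with abemaciclib, and their level differed widely among the ribociclib arrays. Of 41 measured, 35 had a negative difference, 17 were lower and 0 higher at an unadjusted p under 0.05, and the median was -0.83. Rsad2, the antiviral enzyme viperin, was the 1 call. It read 9.04, 10.57 and 8.92 with abemaciclib, 11.91, 13.32 and 12.64 with ribociclib, and 10.62, 10.32 and 10.84 with vehicle. Ribociclib was above both groups on all 3 arrays, and abemaciclib B overlapped vehicle (difference -3.11, SE 0.61, adjusted p = 0.0372). Isg15, a ubiquitin-like modifier, read 9.19, 10.43 and 7.33 against 10.27, 13.29 and 11.96, with overlap between abemaciclib B and ribociclib A (difference -2.86, adjusted p = 0.116). Irf7, the transcription factor that amplifies interferon production, differed by -2.06 (adjusted p = 0.133). The list's median distance from the vehicle mean was -0.49, 1.23 and 0.60 on ribociclib A, B and C, and -0.31, -0.24 and -0.80 on abemaciclib A, B and C. Without ribociclib A, the array with the high muscle signal, 22 of the 41 were called lower, and without abemaciclib B 4 were. The part of muscle content in this was not tested beyond the fit with the marker term, in which Rsad2 was again the 1 call. With the RNA quality term, 0 of the list were called and Rsad2 had an adjusted p of 0.0605, and without the intensity trend its adjusted p was 0.0540 (limma).

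Genes induced by glucocorticoids and those of the circadian clock leaned lower as well. Of 21 glucocorticoid-responsive genes, 18 had a negative difference, 9 were lower and 0 higher at an unadjusted p under 0.05, and Sgk1 and Per1 were called, with a list median of -0.66. Sgk1, a kinase that raises sodium uptake through epithelial channels, read 9.23, 11.87 and 9.93 with abemaciclib, 12.52, 13.19 and 12.36 with ribociclib, and 13.01, 12.78 and 13.16 with vehicle. The abemaciclib arrays were the low ones but replicate B was the closest to ribociclib (difference -2.35, SE 0.47, adjusted p = 0.0416). Per1, a repressor of the clock, read 7.61, 7.70 and 7.12 with abemaciclib, 8.66, 8.99 and 8.60 with ribociclib, and 8.01, 8.08 and 7.79 with vehicle. Vehicle lay between the 2 groups without overlap, and the difference was -1.28 (SE 0.21, adjusted p = 0.0165). Ddit4, an inhibitor of mTOR signalling, read 8.17, 8.33 and 8.13 against 9.14, 10.67 and 9.35 (difference -1.51, adjusted p = 0.0706), and Nfkbia, the inhibitor of NF-kappa B, differed by -1.47 (0.0562). Of 18 clock genes, Per1 was the 1 call, 6 were lower and 1 higher at an unadjusted p under 0.05, and the median was -0.42. The calls of Sgk1 and Rsad2 were each lost in 4 of the 6 fits without 1 array, with adjusted p up to 0.202 and 0.199.

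Of the 31 integrated stress response genes measured, 0 were called, and 6 were lower and 0 higher at an unadjusted p under 0.05 (median -0.33). Ddit3, the factor CHOP, read 8.12, 9.84 and 7.67 against 9.63, 11.75 and 9.60, with overlap (difference -1.78, adjusted p = 0.131). Ppp1r15a, a phosphatase subunit that reverses the response, read 9.33, 7.73 and 8.28 against 9.48, 10.06 and 9.71 (difference -1.31, adjusted p = 0.118). Ribociclib was above vehicle in Ppp1r15a by 2.76 (adjusted p = 0.00146), and the abemaciclib difference of 1.46 had an adjusted p of 0.0549.

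Efna1, a membrane-bound ligand of Eph receptors, read 7.92, 9.09 and 8.49 with abemaciclib, 10.05, 10.85 and 10.18 with ribociclib, and 10.27, 10.56 and 10.28 with vehicle. The abemaciclib arrays were under all others (difference -1.86, adjusted p = 0.0264). Of genes named after their values were seen, the water and glycerol channel Aqp3 differed by -1.38 (adjusted p = 0.0211), at 9.82, 10.79 and 10.04 against 11.30, 11.84 and 11.64, with vehicle at 11.47 to 11.52. The background potassium channel Kcnk5 differed by -1.50 (0.00802), and the fucosyltransferase Fut1 by -1.61 (0.0468), with vehicle at 7.80 to 8.53. Ercc6, a factor of transcription-coupled DNA repair, differed by -1.36 (0.00691) and was called in 5 of the 6 fits without 1 array.

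For another set it was ribociclib that lay apart from vehicle. Zfp819, a zinc finger gene, read 5.81, 7.37 and 7.40 with ribociclib, 3.86, 4.73 and 4.29 with abemaciclib, and 4.51 to 4.80 with vehicle (difference between compounds -2.57, adjusted p = 0.00802). Dnmt3b, a de novo DNA methyltransferase, read 6.10, 8.51 and 6.46 with ribociclib, 4.86, 5.25 and 5.14 with abemaciclib and 4.91 to 4.98 with vehicle (difference -1.94, adjusted p = 0.0490), and replicate B was well above the other ribociclib arrays. Vhl, the substrate receptor of the ligase that degrades HIF, and Inhbb, a subunit of activin B, were named after their values were seen and differed by -1.18 (adjusted p = 0.0496) and -0.79 (0.0188). Ribociclib was above vehicle by 1.42 in Vhl (adjusted p = 0.00687) and by 0.95 in Inhbb (0.00206), and abemaciclib by 0.24 and 0.16 (0.760 and 0.699). With Crebrf, a regulator of the CREB3 factors, vehicle lay between the groups without overlap. Crebrf read 6.22, 8.16 and 5.74 with abemaciclib, 9.46, 9.08 and 8.88 with ribociclib, and 8.31 to 8.79 with vehicle (difference -2.43, adjusted p = 0.0275, limma).

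**Figure D4:**
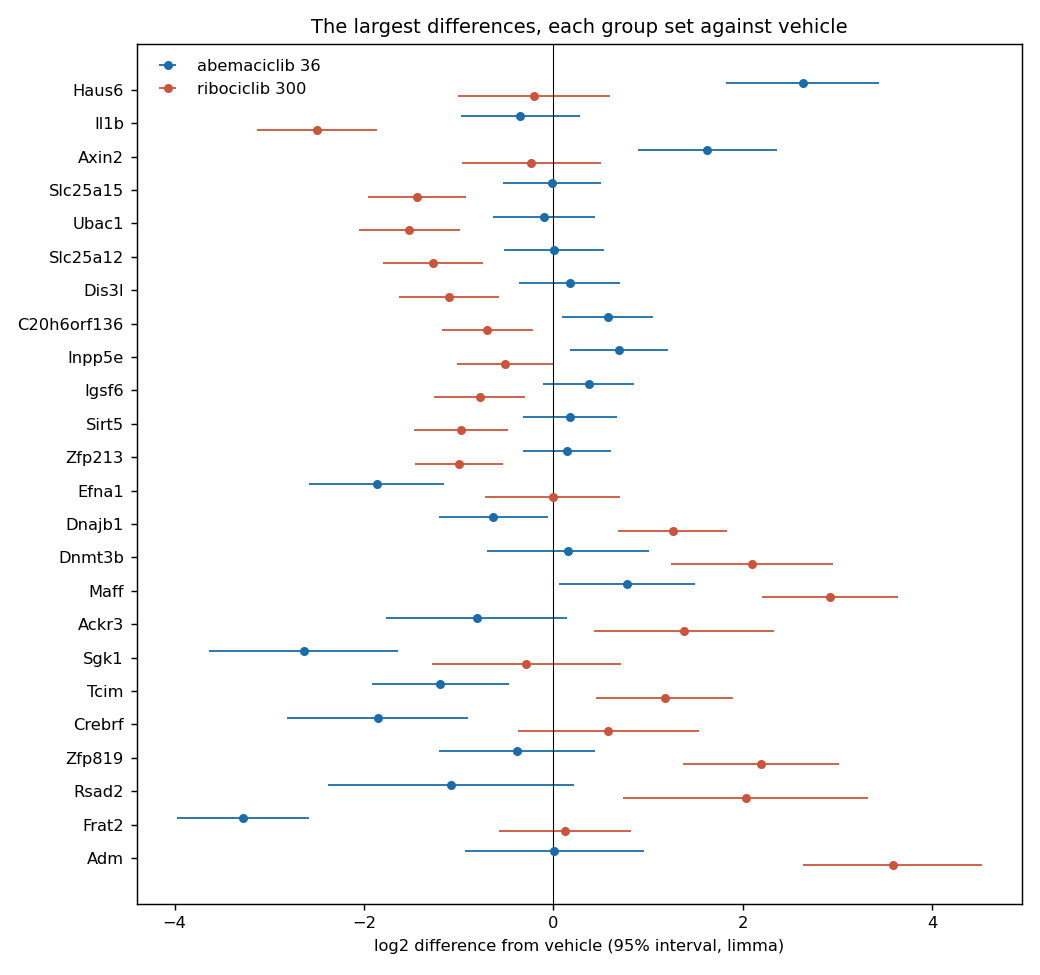
Log2 difference from vehicle (x axis, points with 95% intervals from limma) for the 12 genes with the largest called difference in each direction, blue for abemaciclib 36 and red for ribociclib 300 mg/kg/day. Haus6, Axin2, Frat2, Sgk1 and Efna1 lie near 0 with ribociclib, and Adm, Dnmt3b, Il1b, Slc25a15 and Slc25a12 lie near 0 with abemaciclib. Both sets of differences use the same 3 vehicle arrays.

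Of genes whose products act in mitochondria, Slc25a15, Slc25a12 and Sirt5 were called higher with abemaciclib than with ribociclib. Slc25a15, the carrier that brings ornithine into mitochondria for the urea cycle, read 11.33, 10.65 and 11.22 with abemaciclib, 10.06, 9.26 and 9.60 with ribociclib, and 11.17, 11.00 and 11.07 with vehicle. Ribociclib was the low group, and abemaciclib A and C were above vehicle while B was under it (difference 1.43, SE 0.24, adjusted p = 0.0181). Slc25a12, an aspartate-glutamate carrier, read 8.19, 7.38 and 7.99 with abemaciclib, 6.35, 6.65 and 6.71 with ribociclib, and 7.81, 7.86 and 7.87 with vehicle (difference 1.28, adjusted p = 0.0346). Sirt5, a mitochondrial enzyme that removes succinyl groups from proteins, differed by 1.15 (adjusted p = 0.0450). Against vehicle, ribociclib differed by -1.44 in Slc25a15 (adjusted p = 0.00608), -1.28 in Slc25a12 (0.0121) and -0.97 in Sirt5 (0.0339), and abemaciclib by -0.01, 0.01 and 0.18 (0.991, 0.996 and 0.830). Of 6 probe sets for Slc25a15, 5 differed by 1.04 to 1.73, and the dimmest, with a mean of 4.37, by -0.09.

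Of 31 respiratory chain genes, 0 were called, yet 30 had a positive difference, 27 were higher and 0 lower at an unadjusted p under 0.05, and the median was 0.58. Ndufa4, a small subunit of the chain, read 12.73, 11.57 and 12.41 with abemaciclib, 11.22, 10.88 and 10.96 with ribociclib, and 11.74 to 12.06 with vehicle. Its arrays did not overlap (difference 1.22, SE 0.27, adjusted p = 0.0593). Sdha, the catalytic subunit of succinate dehydrogenase, read 12.20, 11.54 and 12.03 against 11.49, 11.14 and 11.11 (0.67, 0.0651), and Atp5f1c, the gamma subunit of ATP synthase, differed by 0.73 (0.0570). All 49 mitochondrial ribosomal protein genes had a positive difference, 33 were higher and 0 lower at an unadjusted p under 0.05, 0 were called, and the median was 0.75. Mrpl15 read 10.56, 9.88 and 10.67 against 9.67, 9.28 and 9.20, with vehicle at 10.52 to 10.55 (difference 0.98, adjusted p = 0.0506). Within both lists the 3 ribociclib arrays were not alike. The respiratory chain median was -0.21, -0.77 and -0.61 from vehicle on ribociclib A, B and C, and 0.30, -0.26 and 0.13 on abemaciclib A, B and C, so that abemaciclib B and ribociclib A crossed. Without ribociclib A, 24 respiratory chain and 19 ribosomal protein genes were called higher. Without abemaciclib B the counts were 25 and 15, and without any of the other 4 arrays they were 0. Genes of ribosome biogenesis also leaned higher, with 14 of 33 higher and 1 lower at an unadjusted p under 0.05 (limma), a median of 0.73 and 0 calls. Here it was abemaciclib that lay farther from vehicle, with a list median of 0.54 against -0.10 for ribociclib. By array, the list median was 0.28, -0.04 and 1.16 on abemaciclib A, B and C, and 0.37, -0.39 and -0.31 on ribociclib A, B and C.

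**Figure D5:**
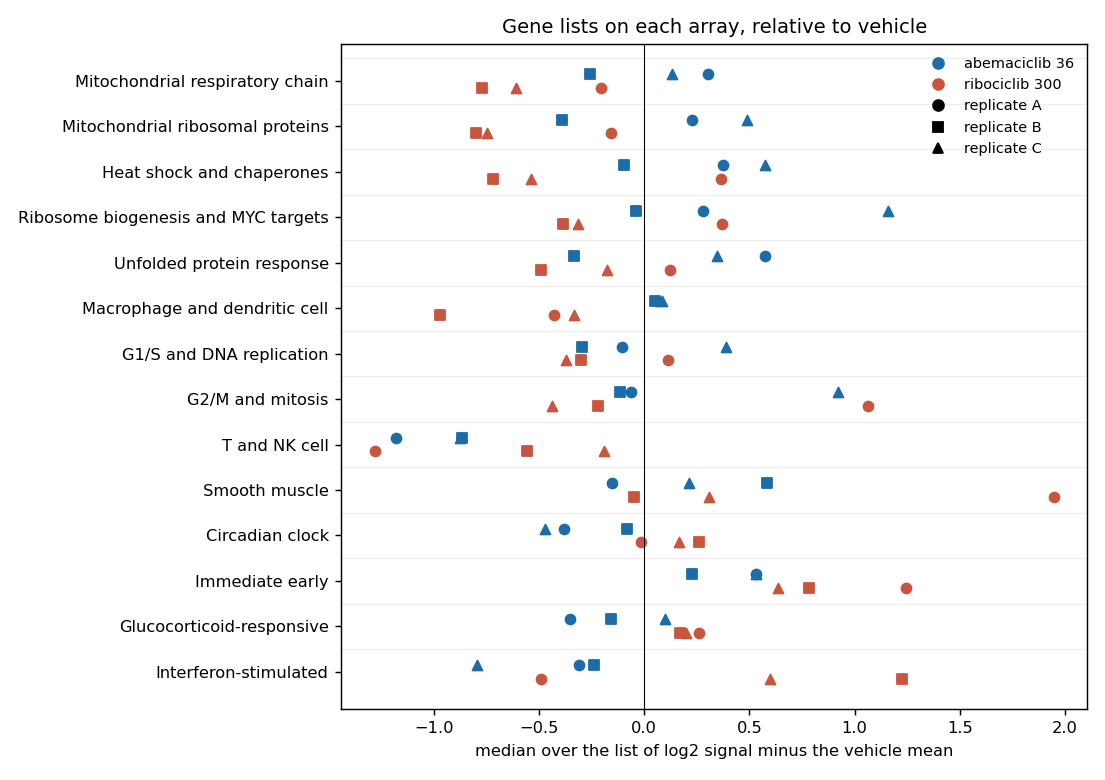
Median over each of 14 gene lists of log2 signal minus the vehicle mean (x axis) on each abemaciclib 36 (blue) and ribociclib 300 (red) array, with symbols for the replicate letter. Ribociclib A stands apart from B and C in the smooth muscle, interferon, G2/M and mitochondrial lists, and the macrophage list separates the 2 groups on all arrays.

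Genes of other functions called higher with abemaciclib had differences of 0.80 to 1.42. Ubac1, a subunit of a cytoplasmic ubiquitin ligase, read 9.03, 8.20 and 8.59 with abemaciclib, 7.65, 7.28 and 6.63 with ribociclib, and 8.53 to 8.93 with vehicle (difference 1.42, adjusted p = 0.0226). Dis3l, a nuclease of the cytoplasmic RNA exosome, read 8.77, 7.91 and 8.34 against 7.12, 6.85 and 7.24 (1.27, 0.0372). In both genes ribociclib was the low group, at -1.52 (adjusted p = 0.00564) and -1.10 (0.0257) from vehicle. Inpp5e, a phosphoinositide phosphatase of the cilium, differed by 1.20 (0.0425), C20h6orf136 by 1.27 (0.0226) and Zfp213 by 1.14 (0.0343). The 4 dimmer probe sets of Zfp213 differed by -0.14 to 0.20, and the 2 dimmer ones of Kctd13 by -0.18 and 0.01. Named after their values were seen, Pstk, Kctd13, Tmco3, Kifc2, Plcg1, Polr2m, Ppp1r18, Exoc3l2 and Ptpro were also among the 22. Among them Pstk, a kinase that acts on selenocysteine tRNA, was 8.19, 8.19 and 8.52 with abemaciclib, 7.35, 7.37 and 6.93 with ribociclib, and 8.54 to 8.86 with vehicle. Ptpro, a receptor tyrosine phosphatase, was under the array medians on all 6 arrays, at 4.69 to 5.27 with abemaciclib against 3.94 to 4.41 with ribociclib.

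Further genes called lower with abemaciclib, likewise named after their values were seen, were Gjb5, Zfp36l2, Trdmt1, Chmp1b, Gltp, Bcar3, Maf, Sts, Gpatch2l, Tm4sf4 and Col9a3, with differences from -1.71 to -0.41. Zfp36l2, a protein that binds AU-rich elements and destabilises mRNA, read 8.94, 9.59 and 9.23 with abemaciclib, 11.17, 10.95 and 10.54 with ribociclib, and 9.96 to 10.33 with vehicle (difference -1.63, adjusted p = 0.0176). Vehicle lay between the groups with no overlap. The transcription factor Maf read 10.04, 10.12 and 9.96 with abemaciclib, 10.64, 10.89 and 10.76 with ribociclib, and 11.26 to 11.36 with vehicle (-0.72, 0.0275). Both compounds were under vehicle in Maf, by -1.28 (adjusted p = 0.000208) and -0.56 (0.0324), and abemaciclib was the lower. Gjb5, a connexin of gap junctions, read 4.34, 5.15 and 4.80 against 5.46, 7.47 and 6.50, and the collagen gene Col9a3, with the smallest called difference, was under the array medians in every group.

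Cd68, a lysosomal glycoprotein of macrophages, read 6.74, 6.76 and 6.85 with abemaciclib, 5.99, 5.80 and 5.79 with ribociclib, and 5.96, 5.99 and 6.33 with vehicle. The abemaciclib arrays were above all others and close to each other (difference 0.92, SE 0.18, adjusted p = 0.0328). It was the 1 call among 23 macrophage and dendritic cell genes, of which 21 had a positive difference, 6 were higher and 0 lower at an unadjusted p under 0.05, with a median of 0.54. Itgax, the integrin CD11c of dendritic cells, read 7.79, 7.80 and 7.36 with abemaciclib, 6.47, 5.27 and 6.25 with ribociclib, and 7.22 to 8.18 with vehicle, with no overlap between the compounds (difference 1.65, adjusted p = 0.0613). Csf1r, the receptor for the macrophage growth factor, read 7.17, 7.70 and 7.08 against 5.98, 5.08 and 6.12 (1.59, 0.109), and Igsf6, an immunoglobulin family receptor of myeloid cells, differed by 1.15 (0.0372). The summed signal of the 4 macrophage markers Cd68, Csf1r, C1qa and C1qb was 10.0 to 10.7 with abemaciclib, 8.92 to 9.87 with ribociclib and 9.26 to 10.2 with vehicle. In scrapings, fewer cells of a type and less RNA per cell cannot be told apart.

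Of 33 genes of T and natural killer cells, the kinase gene Txk was called lower with abemaciclib, at 5.08, 5.73 and 5.61 against 6.42, 7.99 and 6.84 (difference -1.60, adjusted p = 0.0449), and the median was -0.05. Vehicle was above both: the list median was -0.96 from vehicle for abemaciclib and -0.89 for ribociclib. The ribociclib arrays were not alike. By array, the list median was -1.18, -0.87 and -0.87 on abemaciclib A, B and C, and -1.28, -0.56 and -0.19 on ribociclib A, B and C. Vehicle arrays ranged from -0.15 to 0.11, so ribociclib C lay near vehicle. Cd8a, the co-receptor of cytotoxic T cells, read 5.11, 5.80 and 5.63 with abemaciclib, 4.85, 5.41 and 5.71 with ribociclib, and 6.80, 6.96 and 7.24 with vehicle. The compounds overlapped (0.19, 95% interval -0.37 to 0.75) and vehicle was above both (-1.49 with adjusted p = 0.0102, and -1.68 with 0.00447). Granzyme A, Gzma, was 9.34, 9.13 and 9.51 with abemaciclib but 7.28, 10.24 and 10.74 with ribociclib, where replicate A was the low array. The summed signal of 7 T and NK cell markers was also lowest on ribociclib A, at 9.51 against 11.46 and 12.04 on B and C.

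A number of genes lay far from vehicle with both compounds without passing between them, among 296 genes called for abemaciclib against vehicle (2.08%) and 531 for ribociclib (3.73%). Those comparisons share the vehicle arrays, so their likeness is given only as values. Tnfsf10, the death ligand TRAIL, read 5.16, 6.73 and 5.63 with abemaciclib, 6.10, 5.63 and 5.13 with ribociclib, and 8.08 to 8.77 with vehicle. Both were under vehicle, by -2.59 (adjusted p = 0.00290) and -2.81 (0.00139), and the interval between them was -0.58 to 1.02. Hexim1, an inhibitor of the elongation kinase P-TEFb, differed from vehicle by -2.54 (adjusted p = 0.00305) and -1.51 (0.0390), and between compounds by -1.03 (95% interval -1.83 to -0.23, adjusted p = 0.181). Slc25a25, a calcium-regulated mitochondrial carrier of ATP and magnesium, was above vehicle by 3.09 (0.00491) and 2.21 (0.0215), and the pancreatic protease gene Ctrc by 2.20 (0.00290) and 1.58 (0.0155). The intervals between compounds were -0.16 to 1.91 for Slc25a25 and -0.06 to 1.31 for Ctrc. An interval that holds 0 at this number of arrays does not show that the compounds act alike.

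Epithelial function genes gave no call on their lists. Of 19 brush border genes, 0 were called, with 0 higher and 3 lower at an unadjusted p under 0.05, 14 had a negative difference and 5 a positive one, and the median was -0.18. Alpi, intestinal alkaline phosphatase, had the highest difference of the list, at 1.30, and ranged from 11.56 to 13.04 with abemaciclib and from 9.61 to 13.02 with ribociclib. Of 19 goblet cell and mucosal defence genes, 0 were called and 6 were higher at an unadjusted p under 0.05. Among them Fcgbp, a mucus protein, read 13.84, 13.51 and 13.65 against 12.96, 13.11 and 13.30 (difference 0.54, adjusted p = 0.0822), and Tff3, the trefoil peptide of goblet cells, 13.71, 13.72 and 13.83 against 13.45, 13.27 and 13.36 (0.39, 0.102). Neither pair of groups overlapped, and Muc2, the main mucin, differed by 0.25 (0.264). The most variable gene named was Fabp6, the bile acid binding protein of the distal small intestine. It read 4.10, 11.85 and 9.71 with abemaciclib, 14.24, 10.60 and 13.48 with ribociclib, and 7.81, 8.67 and 5.25 with vehicle, and its difference of -4.22 had an SE of 1.55 (adjusted p = 0.180).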

How the data were processed

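The deposited files hold log2 values on a single scale for every probe set of the 18 arrays. Per the submitters' processing notes, the tools were RMA, Transcriptome Analysis Console and Affymetrix Expression Console; versions and settings are not given in the sources used here. RMA in its usual form gives all arrays 1 distribution of signal, so a change in total RNA would not be seen. Arrays carry no read depth, and their small number limits precision. No detection calls were used, so a value near or under the array medians is not shown to be above background.

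Of 31099 probe sets, 57 were controls, 20826 had 1 gene symbol in the platform annotation, 436 had several and 9780 had none there. The brightest probe set stood for a gene, and 4525 of the 14217 genes had several. No pair of arrays held identical values. In R 4.3.3, limma 3.58.1 fitted a mean for each group to all 18 arrays (eBayes with an intensity trend, 12 residual degrees of freedom), and two-sided p-values received Benjamini-Hochberg adjustment. The scripts were tested on simulated data. Tables and figures were made in Python 3.11.15 (pandas 2.3.3, numpy 2.4.6, scipy 1.17.1, matplotlib 3.10.9).

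Genes were named by a rule: the 12 largest called differences in each direction, up to 4 members of each of 47 gene lists by smallest p, and a set of 33 genes. Others are marked as named after their values were seen. Members and lists were chosen with earlier results of these data known, so lists are described by counts and medians without a test. RefSeq promoters (GRCr8) matched 187 of the 243 genes tabulated. Alternatives changed the normalization, the filter on dim genes, the probe set rule, the trend, a minimum fold, the arrays fitted, a replicate block, and an RNA quality or smooth muscle covariate.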

Additional observations from a re-analysis of the deposited data

How the results depend on the processing

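Normalization, probe set rule, trend, dim gene filter and RNA quality term gave 44 to 56 calls against 54, and 40 to 47 of those 54 genes were shared. Fitting only the 2 groups gave 0 calls, 0 higher and 0 lower, and 29 for ribociclib against vehicle, where 213 were called for abemaciclib. A smooth muscle covariate, chosen after seeing the data, gave 126 calls, 62 higher and 64 lower. Without 1 array of the groups compared, calls ranged from 9 to 1524 (4 to 885 higher, 5 to 639 lower), from 46 to 531 for abemaciclib against vehicle and from 120 to 1317 for ribociclib against vehicle. In abemaciclib 36 mg/kg/day against ribociclib 300 mg/kg/day, a minimum fold of 1.5 left 52 calls. No called gene changed direction in any of these fits. Without the intensity trend 25 genes were higher and 24 lower.

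Replicate letters are shared by the groups. With the letter as a replicate block, 78 genes passed, 33 higher and 45 lower, 53 of the 54 among them. Deviations of same-lettered arrays correlated at -0.00, 0.10 and -0.21, so the letters were not taken as pairs.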

Other observations

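Values of the leading genes in the groups outside this comparison, which were not tested here, are given as mean and SD of 3 arrays. Replicate B of abemaciclib at 120 mg/kg/day carries 100 in its title, and its treatment label was followed. Frat2 was 7.58 ± 0.51 with abemaciclib at 120 mg/kg/day, 9.97 ± 0.30 with palbociclib at 30 mg/kg/day and 9.51 ± 0.05 with palbociclib at 100 mg/kg/day, against 6.44 ± 0.21 with abemaciclib at 36 mg/kg/day. Haus6, the augmin subunit, was 7.49 ± 0.71 with the higher abemaciclib dose, close to 7.76 ± 0.76 with the lower, and 4.76 ± 0.40 and 4.77 ± 0.43 with palbociclib. Axin2 was 8.11 ± 0.75, 5.79 ± 0.37 and 6.74 ± 0.32 in the same order.

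For Il1b the higher abemaciclib dose was at 5.65 ± 0.59, nearer to ribociclib (5.36 ± 0.18) than to the lower abemaciclib dose (7.51 ± 0.10). Itgax and Csf1r, genes of dendritic cells and macrophages, were 5.07 ± 0.45 and 5.06 ± 0.78 with the higher abemaciclib dose, and Cd68 was 5.84 ± 0.19. Adm was 5.43 ± 0.22 with that dose and 5.64 ± 0.28 and 5.98 ± 0.32 with palbociclib, all under the 8.94 ± 1.40 of ribociclib. Dnajb1 was 9.71 ± 0.56 with the higher abemaciclib dose, against 11.67 ± 0.37 with ribociclib. Fabp6 was 13.29 ± 0.31 with abemaciclib at 120 mg/kg/day, with its arrays from 12.95 to 13.56, a far smaller spread than at 36 mg/kg/day (8.56 ± 4.00).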
